A study of Mus musculus with 13 samples.

Results

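The clustered histone genes are the small genes, packed in a few groups on the chromosomes, that encode the core histones H2A, H2B, H3 and H4 and the linker histone H1. They were taken as all genes of the deposited table whose GENCODE M21 symbol begins with Hist1h, Hist2h, Hist3h or Hist4h. This gave 57 of the 13201 genes of the table, of 70 such genes in the annotation: 5 H1, 17 H2A, 14 H2B, 11 H3 and 10 H4 genes. The other 13 were not analysed here. All 57 passed the filter on low values (3 or more libraries with a normalized count of 10 or above) and were tested among 12846 genes.

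Polyadenylated RNA was sequenced from mouse bone marrow haematopoietic stem cells (HSCs), which sustain all blood lineages, in 13 Smart-seq2 libraries of 100 sorted cells each. The libraries came from wild-type mice (WT) or from mice labelled KO, which lack MEK1, an ERK-activating kinase whose gene is Map2k1. The mice were untreated or had been given 5-fluorouracil (5-FU), a drug that kills dividing blood cells and is followed by division of the surviving HSCs. Untreated mice gave 3 libraries of each genotype, named D1, D2 and D3 for WT and D4, D5 and D6 for KO. Treated WT mice gave 4 (A2, A3, A4 and D4), and treated KO mice gave 3 (A5, A6 and A8). The labels give no strain, age, 5-FU dose or time after 5-FU, nor how MEK1 was removed. They do not say that libraries came from different animals either, so p-values may rest in part on technical spread.

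Most histone protein is made while DNA is copied, and the clustered genes are the source of it. Their usual messenger RNA is not polyadenylated: it ends just after a short stem-loop, which the stem-loop binding protein holds and the U7 particle helps to cut, and it is degraded when DNA synthesis stops. Some clustered genes can also give longer transcripts that end at an ordinary polyadenylation signal, and such transcripts are known from cells that have stopped dividing or are differentiating. A library made from polyadenylated RNA therefore sees only part of the histone messenger RNA of a cell, and the values below are levels of that part.

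The 2 kinds of end can be looked for in the GENCODE M21 transcripts, as far as their ends are annotated. The letters of the stem-loop (searched as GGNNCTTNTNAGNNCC on the transcript strand) were present in 38 of the 57 genes, and a polyadenylation signal (AATAAA or ATTAAA) lay in the last 50 bases of a transcript in 16. The stem-loops shown first, in capitals, are those of the highest H2A gene, of the highest H4 gene and of genes on which the comparisons below turn.
Hist1h2ap: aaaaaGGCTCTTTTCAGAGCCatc
Hist1h4d: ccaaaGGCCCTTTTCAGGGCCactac
Hist1h1c: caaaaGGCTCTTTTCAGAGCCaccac
Hist3h2a: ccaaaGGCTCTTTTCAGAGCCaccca
Hist1h2ae: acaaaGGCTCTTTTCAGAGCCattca
The annotated transcript of Hist1h2ap stops 3 bases after the stem-loop, whereas those of Hist1h2ae, Hist1h1c and Hist3h2a run on for 151, 840 and 1643 bases. A long run past the stem-loop is not particular to genes with a signal at the end. Without such a signal, the transcripts of Hist1h4d, Hist1h1e and Hist1h1d run on for 770, 1153 and 4884 bases. The transcripts of Hist1h1c, Hist3h2a, Hist3h2ba and Hist1h2ae end with the following stretches, in which the capitals mark the polyadenylation signal.
Hist1h1c: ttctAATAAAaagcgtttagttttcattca
Hist3h2a: gcccAATAAAataagagtacgtgtataaca
Hist3h2ba: tattAATAAAtttggttcaattttggccac
Hist1h2ae: ctccAATAAAtgggtcaatttttttcagat
Hist1h2bc carries neither set of letters, and its annotated transcript is spliced, with 2 exons. In all, 17 genes had a signal at the end of a transcript or a spliced transcript, and 40 had neither. Some of the 40 are annotated little beyond the coding sequence. The transcript of Hist1h2ai has 393 bases with a coding sequence of 390, and that of Hist1h3h has 411 with 408. In such genes neither set of letters could be found past the coding sequence, so their place among the 40 can reflect a short annotation.

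Clustered H2A and H2B genes often sit head to head and share the DNA between their starts. RefSeq promoters (250 bases before to 50 after the start, GRCm38.p6) were matched for 62 of the 70 annotated genes. The letters CCAAT were present on either strand in 85.5% of them, against 37.4% of all 32851 RefSeq promoters, and TATAAA in 56.5%, against 13.6%. The octamer ATTTGCAT was present in 20.97%, against 1.74%: in 7 of 18 H2A promoters and 6 of 16 H2B promoters, and in 0 of 6 H1, 0 of 10 H3 and 0 of 12 H4 promoters. CCAAT was in every H1, H2A, H2B and H3 promoter matched and in 3 of 12 H4 promoters. The shared DNA is shown for 2 pairs that hold all of these letters, in capitals on either strand and without overlap between them, because one gene of each pair changed between the groups. In both pairs shown the partner's level was far lower.
Hist1h2ac promoter, chr13:23683910-23684209, minus strand, facing Hist1h2bc: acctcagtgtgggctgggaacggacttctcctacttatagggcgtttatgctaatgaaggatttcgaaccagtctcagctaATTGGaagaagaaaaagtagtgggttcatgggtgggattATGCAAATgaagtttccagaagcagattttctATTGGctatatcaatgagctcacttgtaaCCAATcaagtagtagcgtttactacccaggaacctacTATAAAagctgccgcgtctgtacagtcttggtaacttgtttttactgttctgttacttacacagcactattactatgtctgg
Hist1h2ae promoter, chr13:23571171-23571470, minus strand, facing Hist1h2bg: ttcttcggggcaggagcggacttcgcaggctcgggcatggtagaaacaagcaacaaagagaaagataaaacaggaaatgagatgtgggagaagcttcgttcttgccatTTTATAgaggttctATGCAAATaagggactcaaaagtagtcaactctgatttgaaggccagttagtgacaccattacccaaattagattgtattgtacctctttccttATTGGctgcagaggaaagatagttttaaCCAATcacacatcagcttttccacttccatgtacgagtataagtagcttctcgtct
The starts of Hist1h2ac and Hist1h2bc are 250 bases apart, and their mean levels over the 13 libraries were 17.0 and 1638 normalized counts per kilobase of annotated exon. Those of Hist1h2ae and Hist1h2bg are 175 bases apart, with 3508 and 308 per kilobase. Hist2h2ac, which also changed, and Hist2h2be form another pair with all of these letters, not shown here, with 721 and 156 per kilobase. Some pairs were closer in level, such as Hist1h2bl and Hist1h2ai with 230 and 202.

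Levels are given as normalized counts, which were worked back from the deposited values. Differences written as log2 are differences of the deposited variance-stabilized values with their standard error (SE), and these understate the change of genes with low counts. Tests are those of limma over all 12846 genes, with Benjamini-Hochberg adjustment within each comparison, and "rose" and "fell" are used for an adjusted p under 0.05. A library in which a gene has 0 reads could by counting error alone hide up to 3, which is a normalized count of 0.979 to 4.35 depending on the library. Read totals lay between 11416753 and 25380570 in 12 libraries and reached 45384866 in untreated WT D1. Map2k1 was lower on average in KO libraries but still detected: 905, 1116 and 1766 in untreated WT against 611, 749.8 and 545 in untreated KO, and 604, 1634, 584 and 1573 in WT after 5-FU against 328, 459.9 and 304 in KO after 5-FU. The difference passed the test after 5-FU (log2 -0.96 ± 0.28 SE, adjusted p = 0.0339) and not in untreated cells (log2 -0.69 ± 0.30 SE, adjusted p = 0.460). WT A3 and WT D4 after 5-FU were nearly alike (Pearson r = 0.988 across genes), so counts of histone genes called are also given with both averaged into 1 replicate. Untreated libraries were acquired in 2015 and those after 5-FU in 2016, except WT D4 after 5-FU, acquired in 2015.

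Copies of one histone type are nearly identical, and how reads that match several copies were assigned is not given in the sources used here. The coding sequences of the annotated H2A, H2B and H4 genes were up to 100% identical to another copy, those of H3 genes up to 99.8% and those of H1 genes up to 84.0%. Of the 57 genes, 46 were at least 90% identical to another copy, 9 were less alike and 2 are annotated without a coding sequence. Values of single H2A, H2B, H3 and H4 genes are therefore uncertain where copies share reads, and those of H1 genes, Hist3h2a and Hist2h2be are less so. Reads of overlapping genes, such as Hist3h2a and Trim17 or Hist1h1e and Hist1h2be, cannot be told apart where the genes overlap. Hist1h1e and Hist1h2be lie on the same strand. For genes on opposite strands, Smart-seq2 does not mark the strand a read came from.

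Together the 57 genes held 0.140% ± 0.042 of the reads in untreated WT libraries, 0.239% ± 0.053 in untreated KO, 0.460% ± 0.104 in WT after 5-FU and 0.309% ± 0.031 in KO after 5-FU (SD, n = 3, 3, 4 and 3). Most of this came from few genes. Hist1h2ap, an H2A gene, had a mean of 57856 normalized counts per kilobase over the 13 libraries, and the next highest was the annotated H2A pseudogene Hist1h2aj with 4853. A mean of at least 1000 normalized counts was reached by 8 genes, and 34 stayed under 100. Hist1h2ap made up 73.3% to 88.2% of the summed H2A count in every library, and Hist1h4d made up 67.0% to 85.6% of the summed H4 count.

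**Figure D1:**
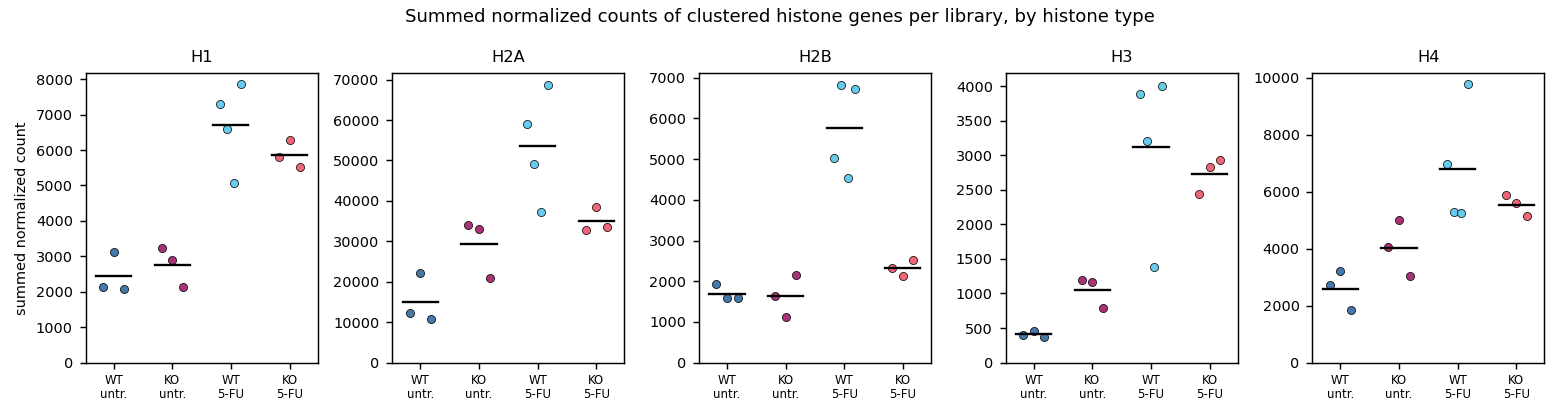
Summed normalized counts (vertical axis, from 0) of the clustered H1, H2A, H2B, H3 and H4 genes in each of the 13 libraries, by group (untr., untreated). Points are libraries and bars are group means. The 4 WT libraries after 5-FU lie above all untreated WT libraries for each type, and for H2B they also lie above all 3 KO libraries after 5-FU.

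After 5-FU, genes of every histone type rose in WT cells. Of 57 genes, 16 rose and 0 fell in WT after 5-FU against untreated WT, where 3.72% of all genes tested rose and 2.96% fell (6.68% in all). The groups did not overlap in 26 histone genes, all higher after 5-FU, against 8.8% of all genes that were higher and 7.92% that were lower without overlap. The median log2 difference of the 57 genes was 0.45, against -0.00222 over all genes tested. By type, 3 of 5 H1, 6 of 17 H2A, 1 of 14 H2B, 4 of 11 H3 and 2 of 10 H4 genes rose. The count was 16 with limma-voom on recovered reads, which called Hist1h1d and not Hist1h3d. It was 10 with WT A3 and D4 averaged, 9 with acquisition year as a covariate, 9 without WT D4 and 10 without untreated WT D1.

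In KO cells after 5-FU, 5 of the 57 genes rose and 0 fell, against 2.78% and 3.14% of all genes tested (5.92% in all). Of the 5, Hist1h1b, Hist1h2ae, Hist2h3b and Hist2h3c2 also rose in WT, and Hist1h1a did not pass there. The groups did not overlap in 20 genes that were higher and 5 that were lower after 5-FU, against 14.2% and 14.6% of all genes, and the median log2 difference was 0.17 against -0.0117 over all genes. In KO cells treatment and acquisition year cannot be told apart, and with year as a covariate, estimated from WT D4 alone, 0 of the 5 calls remained. Limma-voom called 2, and 4 were called with WT A3 and D4 averaged. Without untreated KO D6 2 genes were called, and without untreated KO D5 or without A5, A6 or A8 after 5-FU 3 were called.

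Between the genotypes, no histone gene passed the test in untreated cells. The count was 0 with limma and 0 with limma-voom, where 0.0311% of all genes tested passed (0.0234% higher and 0.00778% lower in KO); 7 histone genes were higher and 1 was lower in KO at an unadjusted p under 0.05. In 9 genes (Hist2h2ac, Hist1h2af, Hist1h2ac, Hist2h3b, Hist1h3i, Hist1h3h, Hist1h3b, Hist1h3c and Hist1h4k) every untreated KO library was above every untreated WT library, and in 0 genes every one was below, against 5.88% and 5.67% of all genes. The difference was positive in 44 and negative in 13 of the 57 genes, with a median log2 of 0.13 against 0.00247 over all genes.

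After 5-FU, 5 histone genes fell in KO against WT and 0 rose, where 5.5% of all genes tested fell and 5.36% rose (10.9% in all). The 5 were Hist1h1c, Hist1h2bc, Hist3h2a, Hist3h2ba and Hist1h2ae. With WT A3 and D4 averaged 4 fell, and 3 fell without WT D4, A5, A6 or A8. By the polyadenylation signal alone, 4 of the 16 genes with a signal at the end of a transcript and 1 of the 41 others fell. The 1 is Hist1h2bc, which is spliced, so with spliced genes added the 5 lie among 17 genes and 0 among the other 40. Both groupings rest on the annotated transcript ends and were made after the values had been seen, and no test was made between them. The groups did not overlap in 9 genes that were lower and 3 that were higher in KO, against 13.8% and 13.2% of all genes. The median log2 difference over the 57 genes was -0.09, against -0.0155 over all genes.

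The genotype by treatment interaction (the 5-FU difference in KO minus that in WT) passed the test in 3 histone genes, all negative: Hist1h1c, Hist1h2ap and Hist1h2bc. Over all genes tested, 1.8% were called negative and 1.04% positive (2.84% in all). The count was 2 with WT A3 and D4 averaged and 1 without untreated KO D4, A5 or A6.

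**Figure D2:**
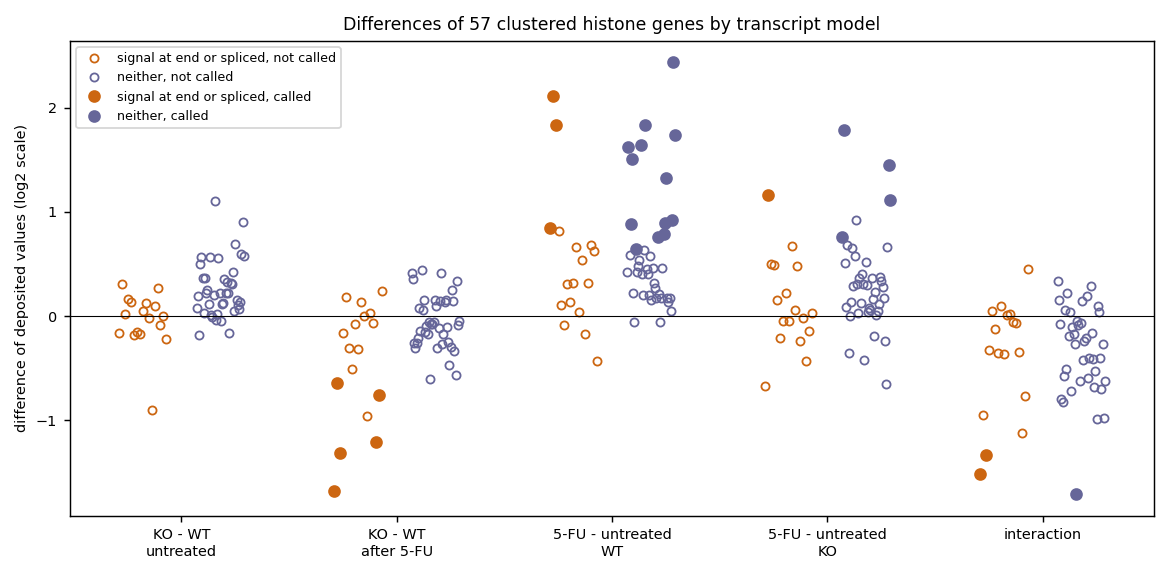
Differences of the deposited values (vertical axis, log2 scale) of the 57 clustered histone genes in the 5 comparisons, with filled points for an adjusted p under 0.05. Orange, 17 genes with a polyadenylation signal at the end of a transcript or a spliced transcript; violet, 40 genes with neither. The grouping was chosen after the values were seen. In KO against WT after 5-FU the 5 filled points are orange, 4 of them genes with a signal and 1 (Hist1h2bc) spliced without one.

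The linker histone H1 binds where DNA enters and leaves the nucleosome, and the cell mixes several H1 subtypes. Hist1h1c encodes a subtype known also from cells that are not dividing. Its normalized counts were 651, 629 and 1075 in untreated WT, 884, 451 and 660.0 in untreated KO, 1389, 1906, 1414 and 1957 in WT after 5-FU and 243, 349 and 299 in KO after 5-FU. Every WT library after 5-FU lay above, and every KO library after 5-FU below, all untreated libraries. After 5-FU the KO mean was 297 ± 52.9 and the WT mean 1667 ± 307 (SD, n = 3 and 4), 5.61-fold lower in KO (log2 -1.68 ± 0.21 SE, adjusted p = 8.20e-05). Hist1h1c rose after 5-FU in WT (2.12-fold, log2 0.84 ± 0.21 SE, adjusted p = 0.0214), a call lost in 7 of 23 settings, those without untreated WT D1 or D2 or treated WT A3 or D4 among them (adjusted p = 0.0609 to 0.0784). In KO the 5-FU difference was log2 -0.67 ± 0.22 SE (adjusted p = 0.0859). The interaction was log2 -1.51 ± 0.30 SE (adjusted p = 0.0149). Among libraries acquired in 2016 alone, without WT D4, the KO to WT difference after 5-FU was log2 -1.61 (adjusted p = 5.44e-04).

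Hist1h1b, which encodes an H1 subtype of dividing cells, moved with treatment in both genotypes. Its counts were 939, 1078 and 380.3 in untreated WT, 1011, 1199 and 588 in untreated KO, 4096, 2969.7, 1945 and 3563 in WT after 5-FU and 3838, 4336 and 3810.1 in KO after 5-FU. All 7 libraries after 5-FU were above all 6 untreated ones. The gene rose 3.94-fold in WT (log2 1.62 ± 0.25 SE, adjusted p = 9.16e-04) and 4.28-fold in KO (log2 1.78 ± 0.27 SE, adjusted p = 0.00133). Between KO and WT after 5-FU it differed by log2 0.35 ± 0.25 SE (adjusted p = 0.433), with overlapping groups.

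Of the other H1 genes, Hist1h1e had 393, 1089 and 451 in untreated WT and 1319, 1229.9, 1313 and 1727 after 5-FU, a rise of log2 0.89 ± 0.22 SE (adjusted p = 0.0220). This call was lost in 6 of 23 settings, including those without untreated WT D1 or D3 or treated WT D4 (adjusted p = 0.0771 to 0.0881). Hist1h1a had 55.3, 82.6 and 58.2 in untreated KO and 269, 276 and 242 in KO after 5-FU, a rise of log2 0.76 ± 0.21 SE (adjusted p = 0.0462). It was lost in 13 of 23 settings (adjusted p up to 0.533), among them limma-voom and those without any 1 of the untreated or treated KO libraries, WT A3 or WT D4. Hist1h1d passed in no comparison with limma on the deposited values. Limma-voom called it higher in WT after 5-FU, where its counts went without overlap from 101 to 199 in untreated WT to 297 to 466.

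Within the summed count of the 5 clustered H1 genes, the shares of Hist1h1c and Hist1h1b differed between the treated groups. These are shares of counts, not scaled for exon length (1560 bases for Hist1h1c and 743 for Hist1h1b). They leave out H1f0, a linker histone gene outside the clusters, described below. In KO libraries after 5-FU, Hist1h1c made up 4.20%, 5.56% and 5.42% of the summed H1 count, against 19.0% to 28.9% in WT after 5-FU and 15.5% to 51.8% in the untreated libraries. The share of Hist1h1b in KO after 5-FU was 66.3%, 69.0% and 69.0%, above the 38.4% to 56.2% of WT after 5-FU and the 18.3% to 44.0% of untreated libraries. The summed H1 counts of the treated groups overlapped, with 6704 ± 1218 in WT and 5866 ± 384 in KO (SD, n = 4 and 3).

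**Figure D3:**
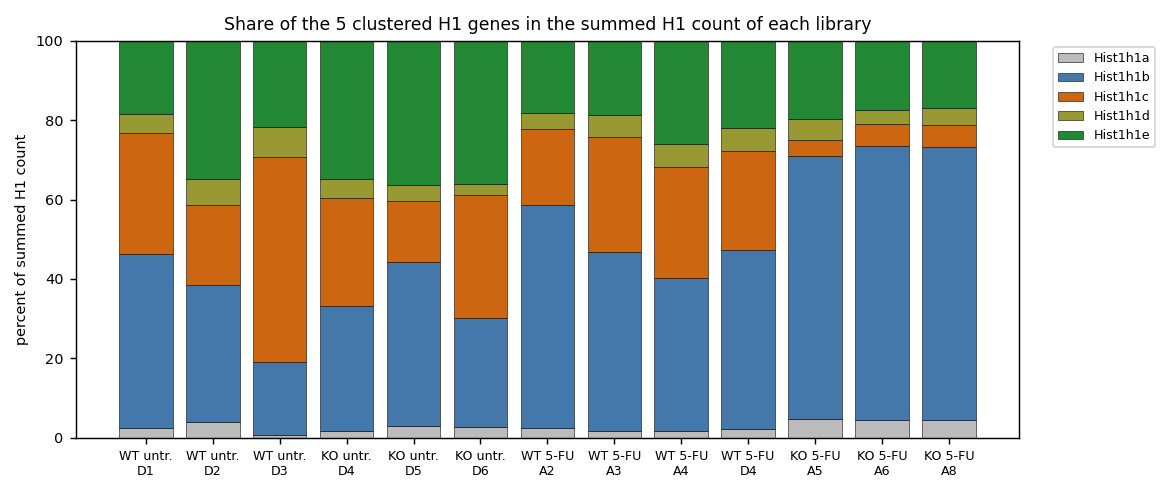
Share of each of the 5 clustered H1 genes (vertical axis, percent) in the summed H1 count of each of the 13 libraries. Hist1h1c (orange) makes up 4.20% to 5.56% in the 3 KO libraries after 5-FU and at least 15.5% in the other 10.

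H2A and H2B form the outer pairs of the nucleosome core. Hist1h2ap is the highest clustered gene, and its coding sequence is identical to that of Hist1h2ao, which is not among the 57, so the value may stand for both. It had 9365, 19226 and 7839 normalized counts in untreated WT, 30038, 27659 and 17875 in untreated KO, 46836, 38849.9, 29048 and 54661 in WT after 5-FU and 24185, 30074 and 26869.5 in KO after 5-FU. WT libraries after 5-FU lay above all untreated WT libraries, whereas treated and untreated KO libraries overlapped. The gene rose 3.49-fold in WT (log2 1.84 ± 0.26 SE, adjusted p = 4.09e-04). In KO the difference was log2 0.13 ± 0.28 SE (adjusted p = 0.843), and the interaction was log2 -1.71 ± 0.38 SE (adjusted p = 0.0235). The adjusted p of the interaction was between 0.0504 and 0.0695 when untreated WT D1, untreated KO D4 or D5, or KO A5 or A6 was left out. In untreated cells KO was log2 1.102 ± 0.277 SE above WT (adjusted p = 0.170), and without WT D2, the untreated WT library with the highest count, this difference passed (adjusted p = 0.0282).

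Hist1h2ae, whose annotated transcript carries both a stem-loop and a polyadenylation signal, rose after 5-FU in both genotypes. The counts were 700.0, 983 and 655 in untreated WT, 1180.0, 1355 and 676 in untreated KO, 4402, 4145, 3929 and 5743 in WT after 5-FU and 2373, 3259 and 2709.6 in KO after 5-FU. After 5-FU all WT libraries lay above all KO libraries, and all of these above the untreated ones. The rise was 5.85-fold in WT (log2 2.11 ± 0.19 SE, adjusted p = 7.55e-06) and 2.60-fold in KO (log2 1.16 ± 0.21 SE, adjusted p = 0.00339). After 5-FU KO was 1.64-fold below WT (log2 -0.64 ± 0.19 SE, adjusted p = 0.0451). This last call is near the threshold: it was lost without untreated KO D4, A2, A3, WT D4, A5, A6 or A8, with an adjusted p of 0.0510 to 0.186.

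Hist3h2a, one of the less alike copies, has an annotated transcript that runs far past the stem-loop. It had 501.5, 508 and 1226 in untreated WT, 612, 629 and 668 in untreated KO, 1121, 1739.8, 919.6 and 1663 in WT after 5-FU and 422, 535 and 249.8 in KO after 5-FU. The 2 treated groups did not overlap, and 2 of 3 untreated WT libraries lay below every WT library after 5-FU. After 5-FU KO was 3.38-fold below WT (log2 -1.21 ± 0.25 SE, adjusted p = 0.00474). Without WT D4 it was log2 -1.12 (adjusted p = 0.0202). The 5-FU difference did not pass in WT (log2 0.69 ± 0.25 SE, adjusted p = 0.111) or in KO (log2 -0.43 ± 0.27 SE, adjusted p = 0.393).

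The other H2A genes that rose in WT were Hist1h2aj, Hist1h2ab, Hist2h2ac and Hist1h2af. Hist1h2ab had 192, 519.7 and 139 in untreated WT and 1502, 1388, 859 and 1557 after 5-FU (log2 1.51 ± 0.23 SE, adjusted p = 7.87e-04). In KO its values were 533, 560.1 and 466 before and 1240.2, 1008 and 874 after 5-FU, without overlap and without passing the test. Hist1h2aj rose by log2 1.65 ± 0.31 SE (adjusted p = 0.00358), from 1055, 406 and 375 to 3718, 1860.1, 1796 and 3015. Hist2h2ac and Hist1h2af were low in untreated WT, at 66.5 to 172 and 8.10 to 10.6, and stood at 243 to 575 and 50.7 to 159 after 5-FU (adjusted p = 0.0325 and 0.0260). The call of Hist2h2ac was lost in 9 of 23 settings, including those without untreated WT D1 or D3, treated WT A2, A3 or D4, or KO A6 (adjusted p = 0.0505 to 0.108). That of Hist1h2af was lost in 6, including those without any 1 untreated WT library or WT D4 (adjusted p = 0.0532 to 0.0913). In untreated KO the same genes were at 173 to 513 and 32.8 to 59.0, above all untreated WT libraries.

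Among H2B genes, Hist1h2bc was the highest. It had 1287, 443 and 893 in untreated WT, 1029.9, 625 and 889 in untreated KO, 3658, 4509.6, 3283 and 3975 in WT after 5-FU and 1244, 1121 and 1652 in KO after 5-FU. The WT libraries after 5-FU stood clear of the other 3 groups. The gene rose 4.41-fold in WT (log2 1.83 ± 0.22 SE, adjusted p = 1.13e-04), and the difference in KO was log2 0.50 ± 0.24 SE (adjusted p = 0.251). After 5-FU KO was 2.88-fold below WT (log2 -1.31 ± 0.22 SE, adjusted p = 0.00106), and log2 -1.29 without WT D4 (adjusted p = 0.00453). The interaction was log2 -1.33 ± 0.33 SE (adjusted p = 0.0366). It did not pass in 12 of 22 other settings, among them those without untreated WT D2, untreated KO D4 or D6, treated WT A3 or D4, or KO A5 or A6 (adjusted p = 0.0578 to 0.106).

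Hist3h2ba, a neighbour of Hist3h2a on chromosome 11, was a low gene. Its counts were 16.0, 70.6 and 1.06 in untreated WT, 21.2, 0.818 and 65.6 in untreated KO, 93.7, 107, 121 and 165 in WT after 5-FU and 4.03, 14.1 and 11.7 in KO after 5-FU. Untreated libraries were widely spread, and the treated groups did not overlap. KO was 12.2-fold below WT after 5-FU (log2 -0.76 ± 0.20 SE, adjusted p = 0.0198), a call lost without WT D4, A5, A6 or A8 (adjusted p = 0.0596 to 0.0891) and with limma-voom (adjusted p = 0.119). Hist2h2be, the second H2B gene by level, had 306, 559 and 307 in untreated WT, 49.7, 2.45 and 429 in untreated KO, 421, 1111, 397 and 1080.0 in WT after 5-FU and 308, 163 and 189 in KO after 5-FU. It passed in no comparison (after 5-FU, KO against WT log2 -0.96 ± 0.36 SE, adjusted p = 0.102), although the treated groups did not overlap. The summed H2B count was 5778 ± 1167 in WT and 2329 ± 199 in KO after 5-FU (SD, n = 4 and 3).

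**Figure D4:**
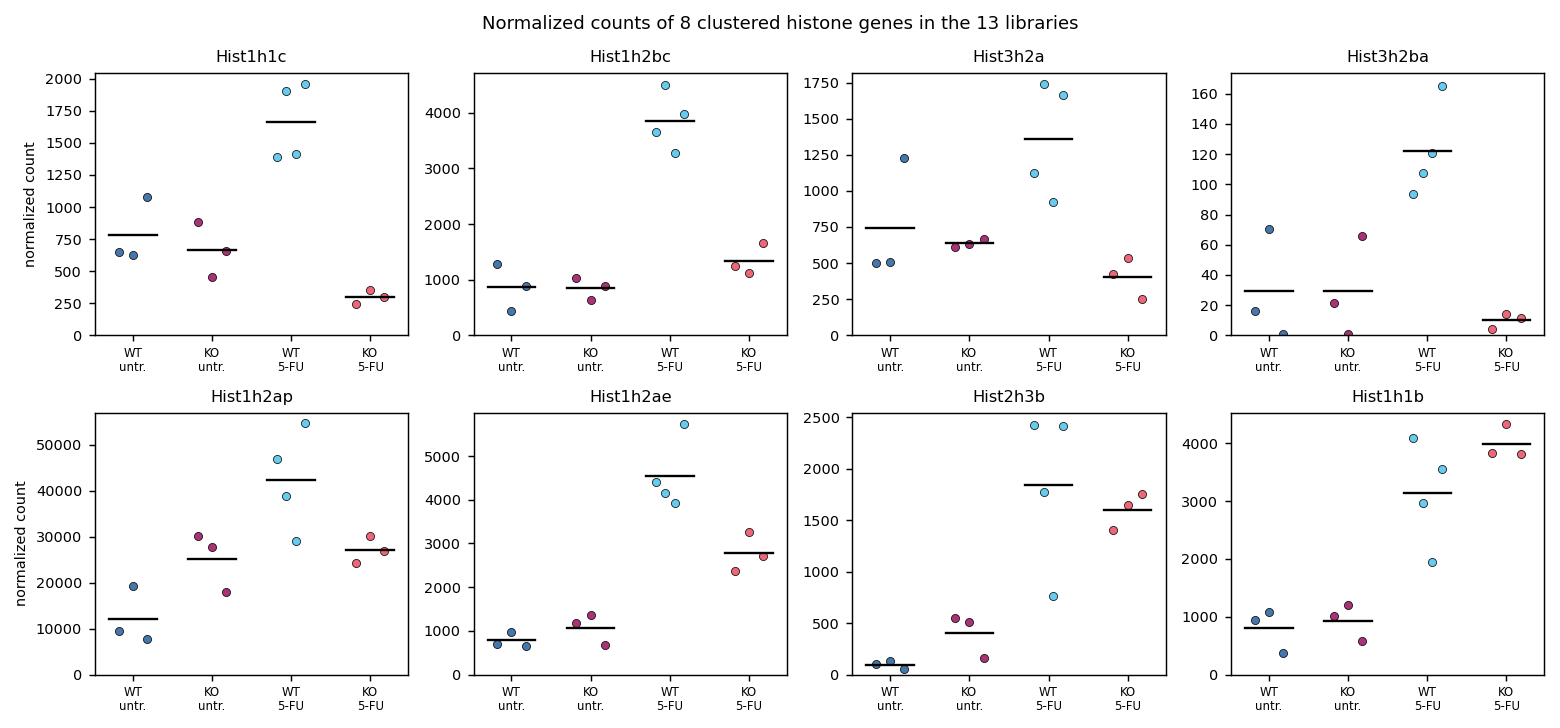
Normalized counts (vertical axes, from 0) of 8 clustered histone genes in the 13 libraries by group (untr., untreated). Points are libraries and bars are group means. In Hist1h1c, Hist1h2bc, Hist3h2a and Hist3h2ba every KO library after 5-FU lies below every WT library after 5-FU, whereas in Hist2h3b and Hist1h1b these groups overlap.

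H3 and H4 form the inner tetramer of the nucleosome core. The 2 highest H3 genes, Hist2h3b and Hist2h3c2, have coding sequences that are 99.8% identical, so their reads may be shared. Hist2h3b had 97.9, 129.6 and 49.6 in untreated WT, 549, 514 and 159.7 in untreated KO, 2427, 1773, 765 and 2418 in WT after 5-FU and 1404, 1649.6 and 1755 in KO after 5-FU. Untreated KO lay between untreated WT and the treated libraries without overlap. The rise after 5-FU was 19.97-fold in WT (log2 2.44 ± 0.29 SE, adjusted p = 1.13e-04) and 3.93-fold in KO (log2 1.45 ± 0.32 SE, adjusted p = 0.0110, and 0.0601 without untreated KO D6). The interaction did not pass (log2 -0.98 ± 0.43 SE, adjusted p = 0.256).

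Hist2h3c2 had 22.2, 68.3 and 2.11 in untreated WT, 198, 143 and 41.3 in untreated KO, 792, 719, 235 and 753 in WT after 5-FU and 449, 618 and 617 in KO after 5-FU. It rose by log2 1.73 ± 0.28 SE in WT (adjusted p = 0.00101) and by log2 1.11 ± 0.29 SE in KO (adjusted p = 0.0326). The KO call was lost in 9 of 23 settings, including limma-voom and those without untreated KO D5 or D6 or any 1 treated KO library (adjusted p up to 0.414). Hist1h3i and Hist1h3d, at lower levels, also rose in WT. Hist1h3i had 8.16, 22.0 and 4.23 before and 187, 130.4, 41.8 and 199 after 5-FU (adjusted p = 0.0246), and Hist1h3d had 1.96, 23.1 and 1.06 before and 68.3, 206, 23.8 and 191 after (adjusted p = 0.0498). The call of Hist1h3i was lost in 7 of 23 settings, including those without untreated WT D1 or D3 or treated WT A3 or D4 (adjusted p = 0.0561 to 0.0830). That of Hist1h3d was lost in 16 of 23, including limma-voom and those without untreated WT D1 or D3, untreated KO D4 or D6, treated WT A3 or D4, or any 1 treated KO library (adjusted p up to 0.151). No H3 gene passed between KO and WT after 5-FU, where the median log2 difference of the 11 genes was -0.04. The summed H3 counts overlapped, at 1385 to 4008 in WT and 2437 to 2935 in KO.

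Of the H4 genes, Hist1h4d had 1828, 2439 and 1341 in untreated WT, 3320.0, 3957 and 2428 in untreated KO, 5951, 3887, 3754 and 7949.8 in WT after 5-FU and 4340.1, 4329.8 and 3688 in KO after 5-FU. It rose 2.88-fold in WT (log2 1.33 ± 0.23 SE, adjusted p = 0.00231), and the difference in KO was log2 0.34 ± 0.25 SE (adjusted p = 0.501). Hist1h4c rose in WT (log2 0.90 ± 0.23 SE, adjusted p = 0.0276), from 7.84, 50.9 and 4.23 to 219.9, 161, 51.4 and 367. That call was lost in 6 of 23 settings, including those without untreated WT D1 or D3 or treated WT A3 or D4 (adjusted p up to 0.105). Hist1h4i, the second by level, passed in no comparison. It had 826, 485 and 279.9 in untreated WT and 597, 1102, 1161 and 1149 after 5-FU.

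Acquisition year bears on the 5-FU comparisons. WT D4 is the only library after 5-FU acquired in the same year as the untreated ones, and it was also the only one sequenced on the second flowcell alone, so year and flowcell cannot be told apart in it. Its counts were 3563 for Hist1h1b, 54661 for Hist1h2ap, 3975 for Hist1h2bc and 2418 for Hist2h3b, where the highest untreated WT library had 1078, 19226, 1287 and 129.6. These genes were called with WT D4 in the treated group, which in part fixes its place. WT D4 was also nearly alike to WT A3, a library acquired in the later year (Pearson r = 0.988 across genes). The other pairs of WT libraries after 5-FU had r of 0.934 to 0.943. Whether WT D4 is independent of WT A3 was not tested, so its values are a weak check on acquisition year. The year covariate was estimated from WT D4 alone and has the same limit. The libraries are bulk samples of 100 cells, so more cells making a transcript and more transcript per cell cannot be told apart.

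The 17 genes with a polyadenylation signal at the end or a spliced transcript and the 40 others were also followed as sums. The 17 summed to 3968 to 5018 in untreated WT, 4063 to 4573 in untreated KO, 11779 to 16464 in WT after 5-FU and 6212 to 6721 in KO after 5-FU. The means in untreated KO and WT were thus close, at 4263 ± 272 and 4441 ± 533 (SD, n = 3 and 3), and after 5-FU the mean in KO was 0.468 times that in WT. The 17 hold all 5 genes that fell in KO against WT after 5-FU, and the grouping was made after the values had been seen. The ratio of 0.468 therefore in part restates those calls. After 5-FU the mean sum was 13836 in WT, of which Hist1h2ae and Hist1h2bc gave 4554 and 3856. In KO it was 6474, of which they gave 2781 and 1339. The 40 summed to 11558 to 26597, 25006 to 39593, 41798 to 80588 and 42951 to 48551 in the same order. Their mean in KO was 1.95 times that in WT in untreated cells and 0.723 times after 5-FU. Hist1h2ap gave 12143 of the mean sum of 17729 in untreated WT and 25190.5 of 34584 in untreated KO. After 5-FU it gave 42349 of 62118 in WT and 27043 of 44899 in KO. Both ratios therefore largely follow this gene. By count, 3 of the 17 and 13 of the 40 rose in WT after 5-FU, where 3.72% of all genes rose. No test was made between the 2 sets.

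S phase genes were higher in KO than in WT after 5-FU. In the list of 25, which holds genes for copying DNA, for its precursors and for entry into S phase, 17 rose and 0 fell in KO against WT after 5-FU (median log2 0.80 against -0.0155 over all genes), where 5.36% of all genes rose. In WT after 5-FU 1 of the 25 rose (Ccna2) and 0 fell, where 3.72% of all genes rose and 2.96% fell. In KO after 5-FU 5 rose and 0 fell, where 2.78% of all genes rose and 3.14% fell. Hells, a chromatin remodeller, had 2481 ± 33.5 in KO and 644 ± 179 in WT after 5-FU (SD, n = 3 and 4, adjusted p = 4.81e-05). For Ccne2, a cyclin of S phase entry, the means were 1993 ± 282 and 485 ± 142 (adjusted p = 2.79e-04), and for Dut, which removes dUTP, 11726 ± 1435 and 5275 ± 1598 (adjusted p = 5.86e-04).

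Histone chaperones and enzymes that act on new histones gave 4 of 21 that rose and 0 that fell in KO against WT after 5-FU, where 5.36% of all genes rose and 5.5% fell. Hat1, which acetylates newly made H4, stood at 7149 ± 180 in KO and 3200 ± 339 in WT (adjusted p = 2.04e-04). Rbbp7, a histone-binding partner of Hat1, stood at 14699.6 ± 1989 and 7141 ± 1847 (adjusted p = 0.00106), and Ipo4, an import factor for H3 and H4, at 509.7 ± 99.7 and 138 ± 77.7 (adjusted p = 0.0114). In KO after 5-FU against untreated KO, 3 of the 21 rose, against 2.78% of all genes: Supt16, Hat1 and Asf1a. In WT the chaperone Asf1b rose, 2.14-fold (adjusted p = 0.00425), while Rbbp7 and Hat1 fell (adjusted p = 0.0114 and 0.0498). Hat1 had a positive interaction (log2 1.19, adjusted p = 0.00907).

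Of the genes that cut, cap, hold or degrade histone messenger RNA, 18 of 22 listed symbols were matched. In KO against WT after 5-FU 2 of the 18 rose and 0 fell, where 5.36% of all genes rose and 5.5% fell. Taken in either direction, 2 of 18 is close to the 10.9% of all genes that passed. The median log2 difference of the 18 was 0.26, against -0.0155 over all genes. Slbp, the stem-loop binding protein, was 1.69-fold higher in KO, at 7841 ± 646 against 4626 ± 1063 (adjusted p = 0.0148), and Srrt, a partner of the cap-binding complex, was 2.39-fold higher (adjusted p = 7.30e-04). In WT after 5-FU Srrt fell (adjusted p = 0.0125) and Upf1, a helicase needed for histone messenger RNA decay, rose (adjusted p = 0.0482). In KO 0 of 18 passed in either direction, where 5.92% of all genes passed. Npat, the coactivator of clustered histone genes, had a mean of 379 ± 200 in untreated KO and 901 ± 103 after 5-FU (SD, n = 3 and 3, adjusted p = 0.0607).

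The 11 listed histone genes outside the clusters were divided. In KO against WT after 5-FU 2 rose, namely H2afz and H2afy, and 2 fell, against 5.36% and 5.5% of all genes. The linker histone gene H1f0, known from cells that leave the cycle, was among those that fell, at 1407 ± 44.9 in KO and 3891 ± 611 in WT (2.77-fold, adjusted p = 4.55e-04). H2afz, an H2A variant placed at promoters, stood at 34936 ± 3640 in KO and 20252 ± 1559 in WT (adjusted p = 0.00320). In WT after 5-FU 4 rose and 1 fell, against 3.72% and 2.96% of all genes. Cenpa, the H3 variant of centromeres, rose 4.96-fold and H2afx, the H2A variant phosphorylated at DNA breaks, 2.45-fold, while H2afy, which encodes macroH2A, fell. In KO after 5-FU 2 rose (H2afz and Cenpa) and 1 fell (H1f0), against 2.78% and 3.14% of all genes.

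The lists of cell type markers did not all move alike. The summed megakaryocyte, erythroid, lymphoid and neutrophil markers were each highest on average in WT after 5-FU. For the neutrophil markers the excess was small, with a mean of 4905 against 4787 in untreated WT. The summed HSC and macrophage markers were highest on average in untreated WT. Histone genes with their highest mean in WT after 5-FU included Hist1h1c, Hist1h2bc, Hist3h2a, Hist1h2ap, Hist1h2ae and Hist1h4d. The summed count of the 7 megakaryocyte markers was 29442 to 51840 in WT after 5-FU, against 3477 to 5105 in untreated WT, 3784 to 7393 in untreated KO and 4166 to 7150 in KO after 5-FU. In KO against WT after 5-FU 6 of these 7 fell and 0 rose, where 5.5% of all genes fell and 5.36% rose. The 6 erythroid markers tested gave 3 lower and 0 higher in the same comparison, the 7 neutrophil markers 4 lower, the 10 HSC markers 5 lower and 1 higher, the 3 lymphoid markers 2 lower and the 4 macrophage markers 0 in either direction (adjusted p under 0.05 with limma). In WT after 5-FU against untreated WT, 3.72% of all genes rose and 2.96% fell. There 6 megakaryocyte, 3 erythroid, 2 neutrophil and 1 lymphoid markers rose and 0 of these lists fell. Of the HSC markers 1 rose and 4 fell, and of the macrophage markers 0 rose and 1 fell. No marker tested was at 0 in all libraries, and some listed markers were not analysed here. The part of these cell types in the histone values was not tested.

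The genes outside the family whose levels ranked most like the summed count of a type over the 13 libraries were Sin3b, Gm9806 and Rpl39 for H1 (Spearman rho 0.896 to 0.907), Rps29, Mbd1 and Rab35 for H2A (0.934 to 0.945) and Tbc1d5, Tgfb1 and Eloa for H2B (0.929 to 0.951). For H3 they were H2afx, Rps28 and Mrgpra2b (0.922 to 0.951), and for H4 Gng5, Unc13d and Rps21 (0.901 to 0.918). These were the top 3 of 12661 genes for each type, and the 13 points share the 4 groups, so the values describe likeness of rank only.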

How the data were processed

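The deposited table holds log2-scale variance-stabilized values of 13 libraries of 100 cells, made by the authors with DESeq2, per the submitters' processing notes, which also name Trimmomatic, Bowtie 1.1.1 and mm10. For the counting tool, annotation and strand setting the labels give nothing. Values were turned back into reads: with the value at 0 solved as 7.6484, all genes in all libraries gave whole reads within 0.1. One read was added to each count before the transformation, and 2 in untreated WT D1. The deposited log2 values entered limma 3.58.1 under R 4.3.3, with 1 mean per group over 13 libraries and eBayes with a trend (residual df 9, prior df 7.67), after a filter at a normalized count of 10 in at least 3 libraries. The planned filter was applied to recovered counts. Benjamini-Hochberg adjustment ran within each of 5 comparisons at 0.05. The test was checked on simulated data. Symbols matched GENCODE M21 for 13069 of 13201 identifiers. Figures and annotation used Python 3.11.15. Exon lengths, transcript ends and coding identities came from the same annotation. Named are histone genes that passed in a comparison, the 2 highest per type, up to 3 members of each list by p, and the 3 genes most like each type. The members and lists were chosen with earlier results of these data known.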

Additional observations from a re-analysis of the deposited data

Results flagged for a closer look

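In WT after 5-FU, Hist1h4i had a normalized count of 597 in A2, apart from 1102, 1149 and 1161 in the other 3 libraries. Hist2h3c2 had 235 in A4 of the same group, apart from 719, 753 and 792. Each gap is wide for a group of 4 by Dixon's criterion. These were 2 of 26 values examined, and chance gives about 1 in 20.

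The response to 5-FU differed between the genotypes, by the interaction test in limma, in Hist1h1c (log2 -1.51, adjusted p = 0.0149), Hist1h2ap (log2 -1.71, adjusted p = 0.0235) and Hist1h2bc (log2 -1.33, adjusted p = 0.0366). In each of the 3 the WT mean was higher after 5-FU. The KO mean was lower after 5-FU for Hist1h1c, at 297 against 665, and close to the untreated mean for Hist1h2ap.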

How the results depend on the processing

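No paired analysis was possible because the groups compared share at most 1 replicate name, which the labels do not tie to a shared animal. Of 29 calls on single histone genes, 12 passed under every alternative, among them Hist1h1c, Hist1h2bc and Hist3h2a in KO against WT after 5-FU and the interaction of Hist1h1c, and none changed direction. With a minimum count of 50, log2(normalized count + 1), WT A3 and D4 averaged, acquisition year as a covariate, limma-voom or only the 2 groups compared, genes called in untreated KO against WT were 2, 9, 2, 2, 0 and 0, against 4. Averaging gave 913 genes in KO against WT after 5-FU (1395), 510 in WT after 5-FU (858) with 10 histone genes (16), and 237 for the interaction (365). Year as a covariate gave 881, 219 and 199 genes there and 7 in KO after 5-FU (761), with 3 histone genes lower in KO after 5-FU (5), 9 higher in WT and 0 in KO. Only the 2 groups gave 415 genes and 9 histone genes in WT. Limma-voom gave 430 genes and 2 histone genes in KO. Log2(normalized count + 1) gave 3 histone genes lower in KO after 5-FU and 3 higher in KO, as did + 5 for the latter, and equal medians called 1 histone gene higher in KO after 5-FU. The cause was not tested. Leaving out each library gave 1 to 25 genes and 0 to 1 histone genes higher in untreated KO against WT; 694 to 1606 genes, 0 to 1 histone genes higher and 3 to 6 lower after 5-FU; 464 to 990 and 9 to 17 for WT; 356 to 979 and 2 to 5 for KO; and 140 to 476 and 1 to 4 for the interaction. Summed counts depend on their highest gene. Without it, log2 ratios were 0.50 (H2A), 1.02 (H3) and 0.14 (H4) in untreated KO against WT, against 1.01, 1.34 and 0.64; -0.92 (H1) and -0.88 (H2B) in KO against WT after 5-FU, against -0.18 and -1.29; 1.14 (H1), 1.20 (H2B) and 1.93 (H3) in WT after 5-FU, against 1.46, 1.75 and 2.83; and 0.051 (H1), 0.94 (H2A), 0.82 (H3) and 0.86 (H4) in KO, against 1.11, 0.28, 1.40 and 0.48. The median of the genes' own differences was 0.22 (H2A), 0.32 (H3) and 0.0801 (H4) in untreated cells; -0.15 (H2A) and -0.14 (H2B) between genotypes after 5-FU; 0.84, 0.54, 0.43, 0.27 and 0.25 (H1 to H4) in WT; and 0.51 (H1), 0.11 (H3) and 0.20 (H4) in KO.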
